A study of Arabidopsis thaliana with 13 samples.

Results

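The UDP-glycosyltransferases of Arabidopsis thaliana outside subfamily UGT76 were taken as the probe sets annotated to 1 gene whose symbol begins with UGT and a number, together with GT72B1, which belongs to subfamily UGT72, and UF3GT, also named UGT79B1. This gave 41 genes in 11 subfamilies, with 1 probe set each, of 13350 genes that a probe set names alone. In 7 of these genes every signal was under 12 units, and 28 of the 41 passed a filter on low signals and were tested. The other 13 are described by their signals alone. The RefSeq gene table of assembly TAIR10.1 lists 52 genes whose symbols meet the same rule, so that 11 further genes were not analysed here.

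Transcripts of seedlings were measured on 13 Affymetrix arrays to follow the response to the synthetic cytokinin 6-benzyl adenine (BA), which was dissolved in diluted potassium hydroxide. The groups were 35S::CKX1 seedlings after 15 min of BA (4 arrays), 35S::CKX1 seedlings with solvent (3 arrays), and wild-type Col-0 seedlings with solvent, after 15 min and after 120 min of BA (2 arrays each). The 35S::CKX1 plants, called CKX1 here, make an excess of cytokinin oxidase, which breaks cytokinins down, from the 35S promoter, which is active in most tissues. Solvent lasted 2 h, as long as the 120 min treatment and longer than the 15 min one. A growth time of 6 days in liquid medium is stated for the Col-0 arrays with BA, and no BA dose is stated in the sources used here. Seedlings were taken whole as far as the labels say, so that fewer cells of a type and less RNA per cell cannot be told apart. No label names separate cultures behind the replicates. The p-values therefore rest on a spread between arrays that may be technical, and the number of arrays limits the precision of every value.

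UDP-glycosyltransferases move a sugar from a UDP-sugar onto small molecules such as flavonols, monolignols, hydroxycinnamates, hormones and foreign chemicals, and the sugar usually makes the acceptor more soluble, less reactive and ready for storage in the vacuole. Subfamilies are numbered by sequence similarity, and members of 1 subfamily can act on different acceptors. Cytokinins are among the acceptors: UGT76 enzymes attach glucose to ring nitrogens and some UGT73C enzymes attach it to the side chain of zeatin.

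A cut in the signal of the 25S ribosomal RNA control set 5 arrays, at 92.5 to 804 units, against the other 8, at 2.4 to 46.2 units. They were CKX1 15 min array 3, CKX1 solvent array 3, Col-0 15 min array 2 and the Col-0 120 min pair. Col-0 15 min array 2, at 92.5 units, was nearer to the highest of the other 8, Col-0 solvent array 1 at 46.2, than to the next high array, CKX1 solvent array 3 at 260.3. By the 25S signal alone its place among the high arrays therefore depends on the cut. On the first principal component of all tested probe sets, the axis of largest variation between arrays, it lay at 45.75. The 5 arrays high in 25S lay there at 34.69 to 77.04 and the other 8 at −42.49 to −25.11. No Col-0 solvent array was among the arrays high in 25S, so within Col-0 the 120 min treatment and the high 25S signal cannot be told apart by these arrays alone. The CKX1 arrays numbered 3 hold the same 25S state in the other genotype, and their values are given for the members that the array patterns below turn on.

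GT72B1, which attaches glucose to phenolic compounds and chlorinated foreign chemicals, fell after 120 min of BA in Col-0 and was the single tested member to pass the threshold in any of the 7 comparisons. At 120 min 18 of the 28 tested members had a log2 change below 0 (64.3%, against 57.1% of all probe sets tested). The larger subfamilies were mixed: 4 of 7 tested UGT71 members and 3 of 4 tested UGT72 members were below 0. UGT84A3 and UGT72E1 had higher signals there. The median log2 change of the 28 tested members at 120 min was −0.53, against −0.11 over all 15922 probe sets tested. Both medians are on the scale of log2(signal + 3.39), on which every log2 change below is given and which understates the change of dim probe sets.

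In the comparison of 120 min of BA with solvent, 1 of the 28 tested members had an adjusted p under 0.05 in limma, against 0.0377% of all probe sets tested. At an unadjusted p under 0.05, 8 members were lower, against a background of 7.84%, and 1 was higher, against a background of 4.9%. Groups of 2 arrays often separate in these data: 13 members were lower without overlap, where the background was 37.4%, and 7 were higher without overlap, where the background was 26.3%. Of the 28 tested members, 17 had their lowest group mean in Col-0 at 120 min (60.7%, against 34.6% of all probe sets tested), and 3 had their highest group mean there (10.7%, against 24.4%). In Col-0 with solvent 9 had their lowest group mean (32.1%, against 17.3%) and 7 their highest (25%, against 26.1%).

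The count of 1 depended on the model and on the arrays high in 25S. With the 25S signal as a covariate 3 members were lower at the threshold, GT72B1, UGT71C1 and UGT72B3, where the background was 0.923%. The covariate assumes 1 slope on the 25S signal per probe set, shared by all groups and both genotypes. That slope comes from differences within groups, which were largest where a group has arrays on both sides of the cut. Every value with the covariate rests on this assumption. Without Col-0 15 min array 2 and both CKX1 arrays numbered 3, an alternative chosen after seeing the data, 9 passed, where the background was 10.1%. The fit of the compared groups alone passed 15 of 28, where the background was 23.1%, and array weights passed 13, where the background was 21.8%.

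**Figure D1:**
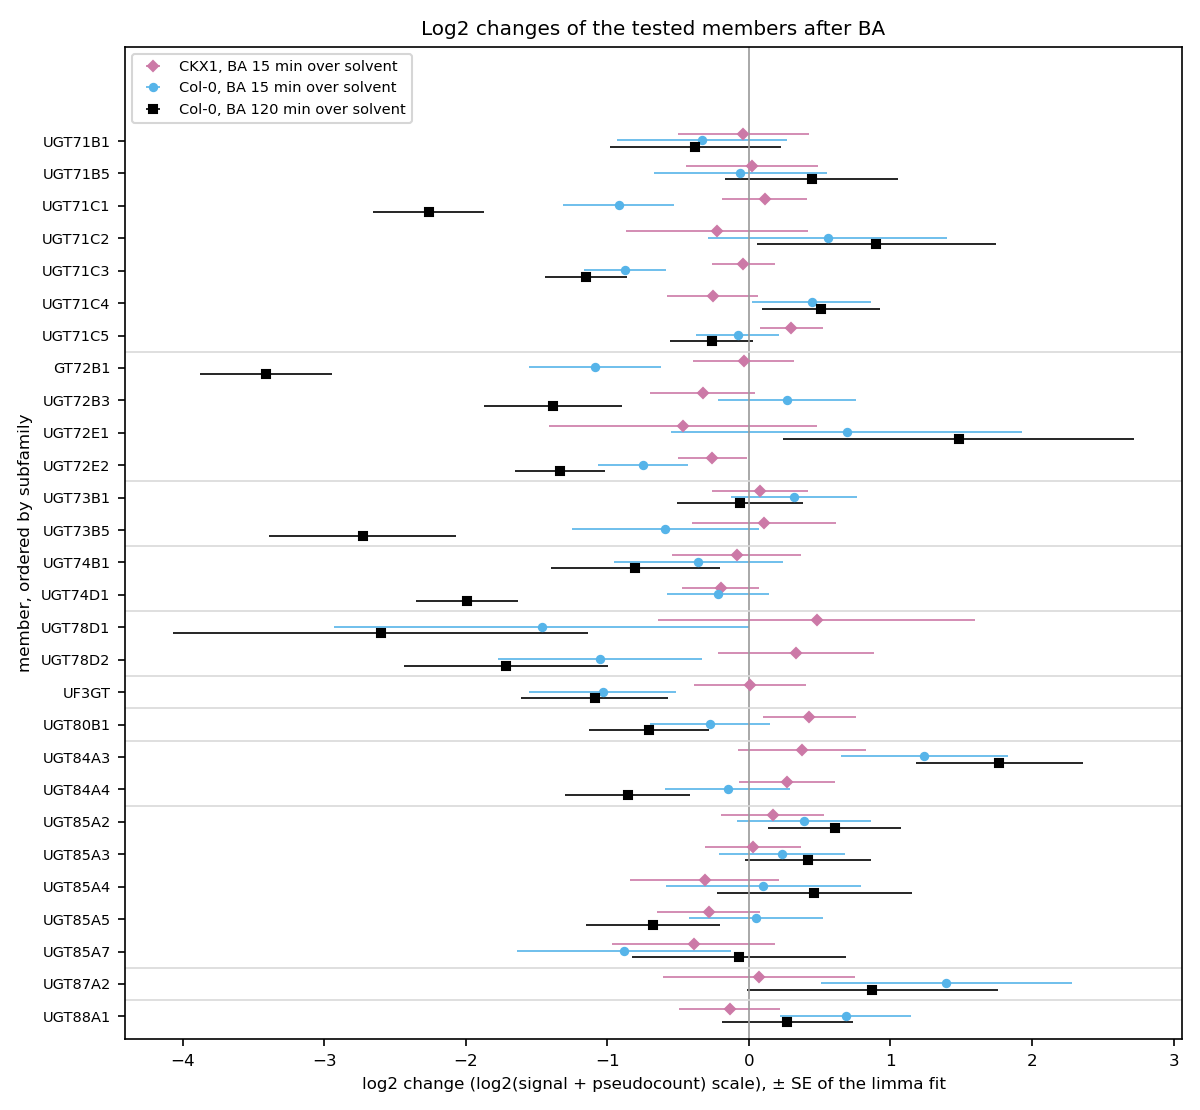
Log2 change (x axis, log2(signal + pseudocount) scale) of each of the 28 tested members (y axis, ordered by subfamily) after 15 min of BA in CKX1, after 15 min in Col-0 and after 120 min in Col-0, each over solvent, with bars of 1 SE from the limma fit. GT72B1 lies farthest to the left at 120 min, at −3.42, and the CKX1 values at 15 min lie between −0.47 and 0.48.

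Subfamily UGT72 held both the strongest decrease and some of the higher signals. GT72B1 (AT4G01070) had signals of 377.8 and 239.7 units in Col-0 with solvent, 241.9 and 79.9 after 15 min of BA, and 27.3 and 23.1 after 120 min. In CKX1 it had 287.9, 180.9, 284.1 and 229.2 units after 15 min of BA and 271.6, 302.4 and 185.6 with solvent. The 120 min arrays thus lay below the other 11 arrays, Col-0 15 min array 2 came next, and both CKX1 arrays numbered 3 lay among the rest of their genotype.

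At 120 min GT72B1 averaged 25.2 ± 2.97 units, against 309 ± 97.7 with solvent (SD, n = 2 each). Its log2 change was −3.42 (SE 0.47), with a limma adjusted p of 0.0332. The call was lost in limma when either Col-0 solvent array was left out (adjusted p = 0.5 without array 1 and 0.436 without array 2) or either 120 min array (adjusted p = 0.204 without array 1 and 0.422 without array 2), while the log2 change stayed between −3.74 and −3.09. It was also lost without CKX1 solvent array 1 or 2, or CKX1 15 min array 1, 2 or 4, at limma adjusted p values of 0.0544 to 0.0768 for GT72B1. With the 25S signal as a covariate the log2 change of GT72B1 was −3.21 and its limma adjusted p was 0.0229, under the assumed slope described above. This does not separate 120 min of BA from the high 25S signal in Col-0.

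The closest relatives of GT72B1 on the array are UGT72B3 and the UGT72E enzymes, which act on the alcohols and aldehydes that are the building blocks of lignin. UGT72B3 (AT1G01420), a monolignol glucosyltransferase, had 9.3 and 8.7 units after 120 min of BA, against 36.5 and 22.8 with solvent. After 15 min its signals in Col-0 were 35.4 and 35.6 units, and CKX1 arrays ranged between 14.3 and 54.7, with 30.7 in 15 min array 3 and 54.7 in solvent array 3. Only the 120 min arrays were low, and its log2 change was −1.38 (SE 0.49, limma adjusted p = 0.299). With the 25S signal as a covariate it was −2.14, with a limma adjusted p of 0.0443.

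UGT72E2 (AT5G66690), which glucosylates coniferyl and sinapyl alcohol, had 240.7 and 256.7 units in Col-0 with solvent, 206.7 and 103.4 after 15 min, and 101 and 91.8 after 120 min. Its CKX1 arrays held 184.3 to 290.2 units, so that the low signals were those of the 3 Col-0 arrays high in 25S and not of the CKX1 arrays numbered 3, which had 240.1 units after BA and 252.8 with solvent. The log2 change at 120 min was −1.34 (SE 0.32, limma adjusted p = 0.151).

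UGT72E1 (AT3G50740), which glucosylates coniferyl and sinapyl aldehyde, ran the other way. It had 684.7 and 833.2 units after 120 min of BA, against 297.9 and 241.7 in Col-0 with solvent. Col-0 15 min array 2 had 967.5 units against 194.6 in array 1, and the CKX1 arrays numbered 3 had 1334.1 units after BA and 1506.2 with solvent, against 81.1 to 297.9 units in all 8 arrays low in 25S. The 120 min log2 change of UGT72E1 was 1.48 (SE 1.24, limma adjusted p = 0.662), and with the 25S signal as a covariate it was −1.09. UGT72E3, a sinapyl alcohol glucosyltransferase, did not pass the filter, at 1.9 to 20.1 units.

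**Figure D2:**
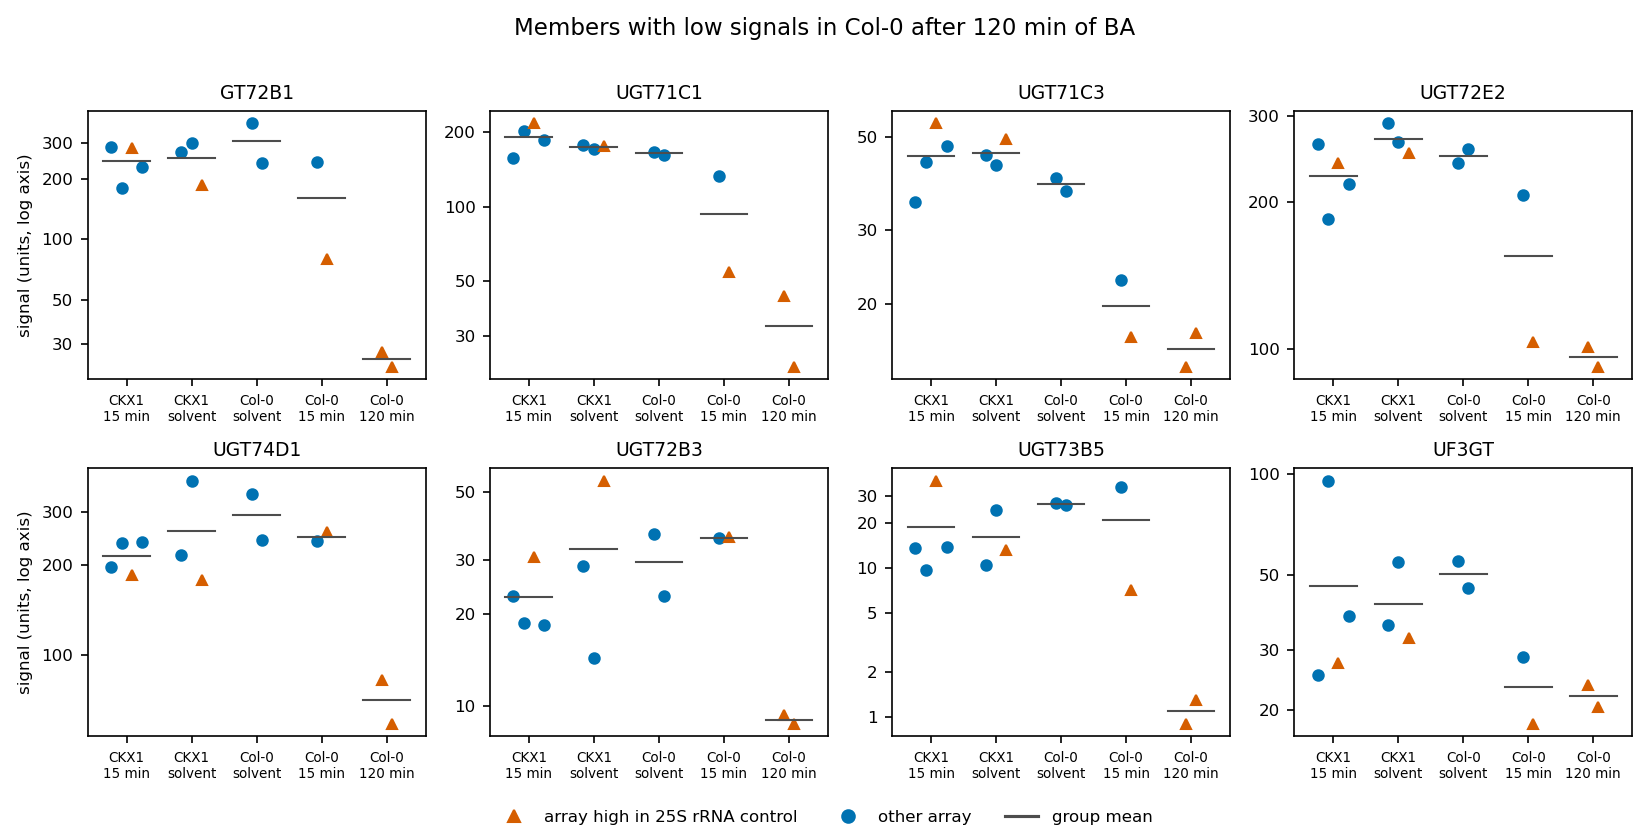
Signal (y axis, log scale, deposited units) of 8 members on each array, by group (x axis), with triangles for the 5 arrays high in the 25S control, circles for the other 8 and lines for group means. In GT72B1, UGT71C1, UGT71C3, UGT72E2, UGT73B5 and UF3GT the 3 Col-0 triangles lie below all other points, and in UGT74D1 and UGT72B3 only the 120 min pair does.

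Subfamily UGT71 had 9 members, of which 7 were tested, and their log2 changes at 120 min ran between −2.26 and 0.90. UGT71C1 (AT2G29750) had 166.5 and 161.9 units in Col-0 with solvent, 132.6 and 54.3 after 15 min of BA, and 43.6 and 22.5 after 120 min. CKX1 arrays lay between 156.8 and 217.3 units, and those numbered 3 had 217.3 units after BA and 175.7 with solvent. All 4 Col-0 arrays with BA were thus below every array of the other 3 groups. The 120 min log2 change was −2.26 (SE 0.39, limma adjusted p = 0.0707), and with the 25S signal as a covariate it was −2.24 with a limma adjusted p of 0.0443.

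UGT71C3 (AT1G07260), which glucosylates methyl salicylate, showed the same order at lower signals. It had 40 and 37.3 units in Col-0 with solvent, 22.8 and 16.6 after 15 min, and 14.1 and 17 after 120 min. CKX1 gave 35, 43.6, 54 and 47.6 units after 15 min of BA and 45.4, 43 and 49.5 with solvent. The 4 Col-0 arrays with BA were again below the other 9 arrays, and the log2 change at 120 min was −1.15 (SE 0.29, limma adjusted p = 0.175).

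In 2 of the 28 tested members, UGT71C1 and UGT71C3, the 4 Col-0 arrays with BA lay below the other 9 (7.14%, against 0.873% of all probe sets tested). UGT71C2 (AT2G29740) had 80.6 and 113.1 units after 120 min, against 42.5 and 57.8 in Col-0 with solvent. It was also high in the remaining arrays with high 25S, at 137 units in Col-0 15 min array 2, 210.2 in CKX1 15 min array 3 and 307.3 in CKX1 solvent array 3. Its log2 change of 0.90 (SE 0.84, limma adjusted p = 0.702) was −0.79 with the 25S signal as a covariate. UGT71C4 (AT1G07250) had 203.6 and 189.3 units after 120 min, against 129.8 and 144.6 with solvent, and the arrays numbered 3 were the highest of the CKX1 groups, at 186.1 units after BA and 219.4 with solvent.

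UGT71C5 (AT1G07240), which makes the glucose ester of abscisic acid, had 102.5 and 91.3 units after 120 min, against 98.3 and 138.6 with solvent, so that the groups overlapped. UGT71B1 (AT3G21750) also overlapped, at 21.8 and 35.7 units after 120 min, against 47.2 and 29.5 with solvent. UGT71B5 (AT4G15280) lay between 6.5 and 42.3 units with overlap in every comparison. UGT71B6 and UGT71B8, which also act on abscisic acid, were dim, at 11.2 units or less on every array, and were not tested.

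UGT71C1 and UGT71C2 are adjacent genes in the RefSeq table, as are UGT71C3, UGT71C4 and UGT71C5. Across the 13 arrays the log2 signals of UGT71C1 and UGT71C2 had a Pearson r of −0.16, those of UGT71C3 and UGT71C4 of −0.32, and those of UGT71C4 and UGT71C5 of −0.47. Over the 7 adjacent pairs with both members tested, r ran between −0.47 and 0.55 with a median of −0.16, and over all 378 pairs of tested members between −0.92 and 0.94 with a median of 0.11. These are descriptions over arrays that share the 25S split.

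Subfamily UGT73 had 7 members, of which UGT73B1 and UGT73B5 were tested. UGT73B5 (AT2G15480), an enzyme linked to the defence against bacteria, had 0.9 and 1.3 units after 120 min of BA, against 27 and 26.4 with solvent. Col-0 15 min arrays had 34.7 and 7.1 units, and CKX1 arrays ranged between 9.6 and 38.3, with 38.3 in 15 min array 3 and 13.2 in solvent array 3. The 120 min arrays were at the bottom of the measurable range and below the other 11 arrays, with a log2 change of −2.73 (SE 0.66, limma adjusted p = 0.153). UGT73B1 (AT4G34138) had 44.9 and 46.4 units after 120 min, between the solvent arrays at 58.6 and 39.

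The remaining 5 UGT73 members did not pass the filter. UGT73D1 had 0.4 and 0.6 units after 120 min of BA and 22.5 and 20.3 with solvent in Col-0, and 30.9 and 2.1 after 15 min. UGT73B4, which acts on foreign chemicals such as trinitrotoluene and lies next to UGT73B5, had 0.8 and 0.7 units after 120 min, against 15.8 and 2.3 with solvent. UGT73C1, which attaches glucose to the side chain of zeatin in vitro, had no more than 5.7 units on any array, UGT73C2 no more than 3.8 and UGT73C7 no more than 12.8. The filter on mean signal left these 5 without a test here.

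In subfamily UGT74, UGT74D1 (AT2G31750), an auxin glucosyltransferase, had 83.1 and 59.2 units after 120 min of BA, against 344.5 and 242.5 with solvent. After 15 min the Col-0 arrays had 239.6 and 256.6 units, and CKX1 arrays held 178.3 to 380.5 units, with 184.4 in 15 min array 3 and 178.3 in solvent array 3, the lowest of each CKX1 group. The 120 min arrays were the only low ones, and Col-0 15 min array 2, which is high in 25S, was not low. The log2 change was −1.99 (SE 0.36, limma adjusted p = 0.0757).

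UGT74B1 (AT1G24100), which forms desulfoglucosinolates on the way to the glucosinolate defence compounds, had 107.4 and 71.4 units after 120 min, against 195.3 and 123.6 with solvent. CKX1 arrays covered 63 to 316 units, a wider range than that between the Col-0 groups, with the highest of each CKX1 group in array 3, at 316 after BA and 216.8 with solvent. The log2 change of UGT74B1 was −0.80 (SE 0.60, limma adjusted p = 0.62), and with the 25S signal as a covariate it was −1.76. UGT74F1, a salicylic acid glucosyltransferase, did not pass the filter, at 2.1 to 29.9 units.

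In subfamily UGT78 both tested members, UGT78D1 and UGT78D2, separated the arrays by their 25S signal in both genotypes. All 5 arrays high in 25S lay below the other 8 in 7.14% of the tested members, near the 6.71% of all probe sets tested. UGT78D1 (AT1G30530), which attaches rhamnose to flavonols, had 2.2 and 9.1 units after 120 min of BA, against 64.8 and 34.4 in Col-0 with solvent. Col-0 15 min array 2 had 2.8 units against 51.3 in array 1, CKX1 15 min array 3 had 1.9, and CKX1 solvent array 3 had 0.5. The other 5 CKX1 arrays held 26.3 to 89 units, so the 5 arrays high in 25S lay below the other 8. The 120 min log2 change of UGT78D1 was −2.60 (SE 1.47, limma adjusted p = 0.492), and with the 25S signal as a covariate it was 0.39.

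UGT78D2 (AT5G17050), a flavonoid 3-O-glucosyltransferase, had 54.3 and 35.9 units after 120 min, against 159.7 and 146.5 with solvent. CKX1 array 3 had 80.1 units after BA and 40.1 with solvent, while the other CKX1 arrays had 135.2 to 244.9. As with UGT78D1, the 5 arrays high in 25S were the lowest, and the log2 change at 120 min was −1.72 (SE 0.72, limma adjusted p = 0.359). With the 25S signal as a covariate it was −0.37 for UGT78D2. UGT78D3, which attaches arabinose to flavonols, was at 3.3 units or less throughout.

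UF3GT (AT5G54060), which extends anthocyanins with xylose, had 55.2 and 46 units in Col-0 with solvent, 28.7 and 18.1 after 15 min, and 23.6 and 20.3 after 120 min. CKX1 arrays ran between 25.3 and 95.5 units, with overlap between BA and solvent, and those numbered 3, at 27.5 units after BA and 32.6 with solvent, did not lie below all others. The log2 change of UF3GT at 120 min was −1.09 (SE 0.52, limma adjusted p = 0.417).

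Of a list of 32 genes of phenylpropanoid and flavonoid synthesis, which makes many of the acceptors of these enzymes, 2 had a probe set named in the annotation and 0 passed the threshold at 120 min. The annotation leaves 8730 probe sets unlisted, so the other genes may be on the array without a name here. DFR, an anthocyanin synthesis enzyme, had 29.5 and 25.4 units, against 102.7 and 63.9 with solvent (log2 change −1.46, limma adjusted p = 0.467). HCT, an enzyme of lignin precursor synthesis, had 430.3 and 456.8 units, against 603.8 and 615 (log2 change −0.46, limma adjusted p = 0.779).

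Subfamily UGT84 contained the member with the largest positive change at 120 min. UGT84A3 (AT4G15490), which makes glucose esters of hydroxycinnamates, had 82.1 and 69.2 units after 120 min, against 18.4 and 21.1 in Col-0 with solvent. Col-0 15 min array 2 had 117.5 units against 21.2 in array 1. CKX1 had 46.6, 54.6, 69.6 and 49.5 units after BA and 26.5, 41.8 and 62.4 with solvent, each time highest in array 3.

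All 5 arrays high in 25S lay above the other 8 for UGT84A3, by 62.4 units against 54.6 at the boundary. Its log2 change of 1.77 at 120 min had an SE of 0.59 and a limma adjusted p of 0.278, and with the 25S signal as a covariate it was 1.11. The adjacent gene UGT84A4 (AT4G15500), with the same activity, ran opposite, at 30.2 and 20.1 units after 120 min, against 45.8 and 49.2 with solvent, with a log2 change of −0.86 (SE 0.44, limma adjusted p = 0.453). With the 25S signal as a covariate that of UGT84A4 was −0.30. UGT84A1, of the same activity, and the UGT84B genes were dim and not tested.

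**Figure D3:**
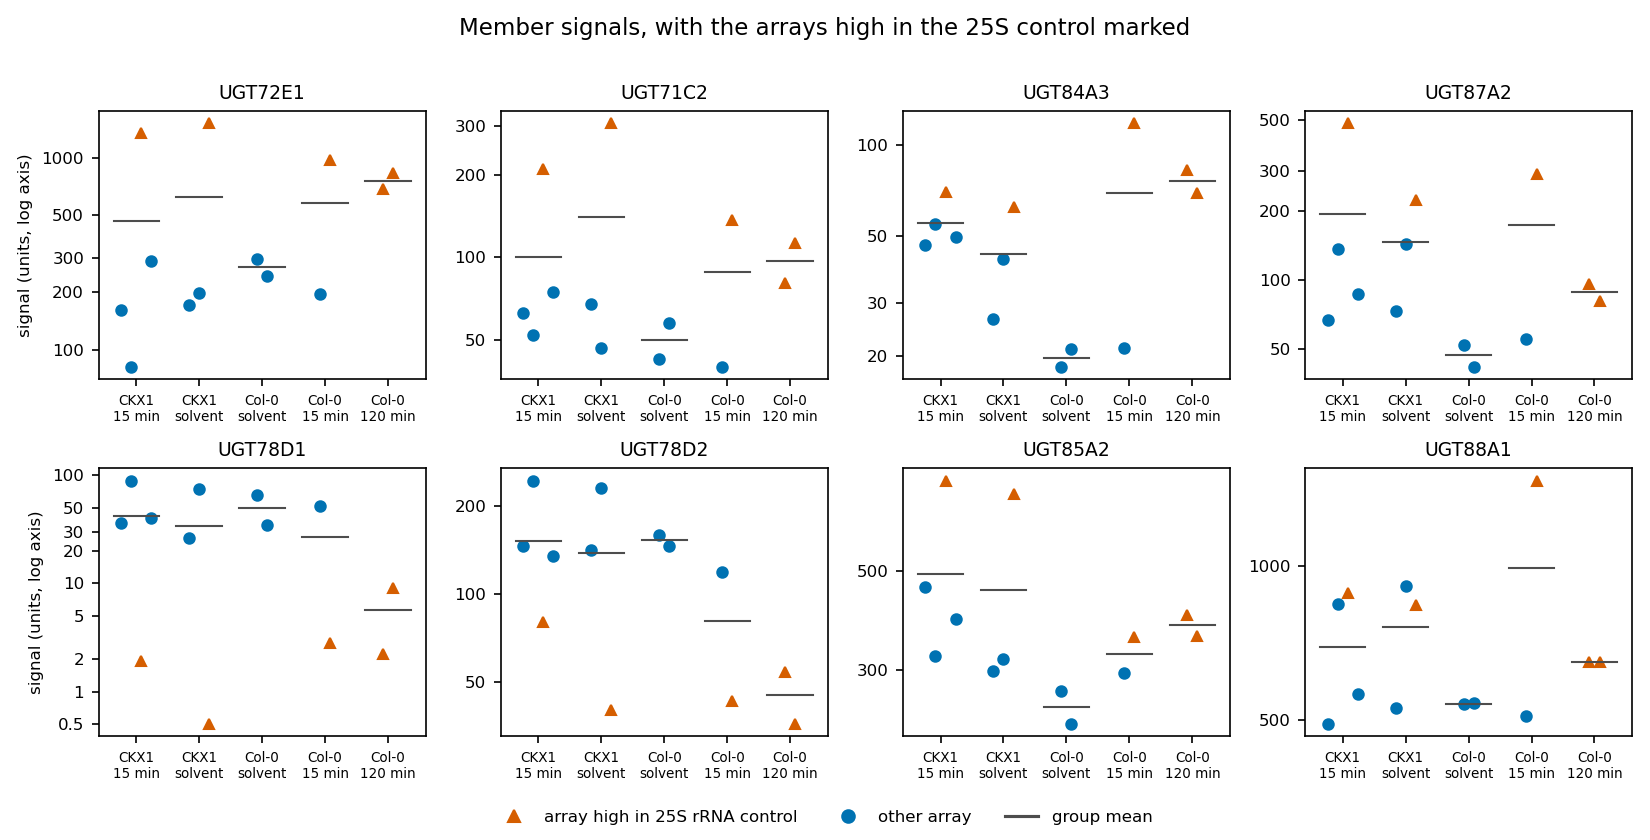
Signal (y axis, log scale, deposited units) of 8 members on each array, by group (x axis), with triangles for the 5 arrays high in the 25S control, circles for the other 8 and lines for group means. For UGT72E1, UGT71C2 and UGT84A3 the triangles lie above all circles in both genotypes, and for UGT78D1 and UGT78D2 below them.

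The 5 UGT85 members were all tested and none had an unadjusted p under 0.05 in any of the 7 comparisons. UGT85A2 (AT1G22360) had 397.8 and 357.2 units after 120 min, against 268.8 and 226.4 in Col-0 with solvent, and reached 799.8 units in CKX1 15 min array 3 and 746.6 in CKX1 solvent array 3. Its 120 min log2 change of 0.60 (SE 0.47) was −0.29 with the 25S signal as a covariate. UGT85A3, UGT85A4, UGT85A5 and UGT85A7 lay between 2.8 and 48.5 units, and their Col-0 groups at 120 min and with solvent overlapped. UGT85A7 and UGT85A2, which are adjacent, had a Pearson r of 0.55 over the 13 arrays. The other adjacent pairs did not vary together, with −0.03 for UGT85A2 and UGT85A5 and −0.13 for UGT85A5 and UGT85A3.

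Each of the subfamilies UGT80, UGT87 and UGT88 had 1 member. UGT80B1 (AT1G43620), a sterol glucosyltransferase, had 36.4 and 44.3 units after 120 min, against 70.4 and 65.2 with solvent, and 33.7 and 33.9 units in the CKX1 arrays numbered 3. UGT87A2 (AT2G30140), linked to flowering time, had 95.7 and 80.9 units after 120 min, against 52.1 and 41.6 with solvent, and 485.2 units in CKX1 15 min array 3. UGT88A1 (AT3G16520) had 647.2 and 649.1 units, against 535.5 and 538.1, and 1465.4 in Col-0 15 min array 2. None of the 3 had a limma adjusted p under 0.5 at 120 min. The log2 changes there were −0.71 for UGT80B1, 0.87 for UGT87A2 and 0.27 for UGT88A1. With the 25S signal as a covariate they were −0.087, −0.64 and −0.12, in the same order of genes.

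After 15 min of BA in Col-0, 0 of the 28 tested members had an adjusted p under 0.05 in limma, as had 0% of all probe sets tested. At an unadjusted p under 0.05, 4 members were lower, against a background of 0.559%, and 0 were higher, against 0.528%. They were UGT71C3 (log2 change −0.88, SE 0.29), GT72B1 (−1.09, SE 0.47), UGT71C1 (−0.92, SE 0.39) and UGT72E2 (−0.75, SE 0.32), each with a limma adjusted p of 1. The 120 min comparison shares the solvent arrays with this one.

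Array 2 of this group, the one high in 25S, was the lower array for all 4. Against solvent within the 8 arrays low in 25S, which leaves 1 array after 15 min, the log2 differences were −0.68 for UGT71C3, −0.31 for GT72B1, −0.30 for UGT71C1 and −0.26 for UGT72E2. UGT87A2 and UGT84A3 had the highest log2 changes at 15 min, 1.40 (SE 0.89) and 1.24 (SE 0.59), and each had its high value in array 2.

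Between the Col-0 times, 0 of 28 tested members passed the threshold in limma, against 0.0188% of all probe sets tested, and 5 were lower after 120 min at an unadjusted p under 0.05, against a background of 3.42%. They were GT72B1 (log2 change −2.33, SE 0.47), UGT73B5 (−2.14, SE 0.66), UGT74D1 (−1.77, SE 0.36), UGT72B3 (−1.65, SE 0.49) and UGT71C1 (−1.34, SE 0.39). The lowest limma adjusted p, 0.283, was shared by GT72B1 and UGT74D1. At the threshold 1 member, UGT72B3, was lower with the 25S signal as a covariate (background 1.66%), 1 with array weights (background 0.138%) and 5 members passed without the 3 arrays named above (background 4.72%).

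All 3 arrays high in 25S of these groups can be set against each other, 2 after 120 min and 1 after 15 min, with no test. The log2 differences were then −1.82 for UGT74D1, −1.65 for UGT72B3, −1.55 for GT72B1, −1.21 for UGT73B5 and −0.73 for UGT71C1. Outside these 5, UGT87A2 differed by −1.69 and UGT88A1 by −1.17, both highest among the Col-0 arrays in 15 min array 2. By the same measure UGT72E2 differed by −0.10 and UGT71C3 by −0.08.

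In CKX1, 15 min of BA left every tested member with a log2 change between −0.47 and 0.48. None of the 28 passed the threshold in limma, where the background was 0.00628%, and 0 had an unadjusted p under 0.05, where the background was 1.37%. GT72B1 averaged 246 ± 50.8 units after BA (SD, n = 4) and 253 ± 60.5 with solvent (SD, n = 3). UGT71C1 had a log2 change of 0.11 (SE 0.30) and UGT71C3 of −0.04 (SE 0.22).

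The test of the genotype difference in the 15 min response passed for 0 of 28 members, against 0% of all probe sets tested, and 1 member, UGT71C3, was higher at an unadjusted p under 0.05, against a background of 0.546%. For UGT71C3 the difference was 0.84 (SE 0.37), for UGT71C1 1.03 (SE 0.49) and for GT72B1 1.05 (SE 0.59), each with a limma adjusted p of 1. A different response of the genotypes at 15 min is therefore not shown for any of them. No CKX1 array at 120 min was analysed here.

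With solvent, CKX1 and Col-0 seedlings differed in 0 of 28 members at the threshold in limma, against 0.0126% of all probe sets tested, and in 0 at an unadjusted p under 0.05, against 4.31%. UGT87A2 had 73.5, 144.4 and 224.4 units in CKX1, against 52.1 and 41.6 in Col-0, the largest log2 difference at 1.46 (SE 0.81, limma adjusted p = 0.897). UGT84A3 had 26.5, 41.8 and 62.4 units in CKX1, against 18.4 and 21.1 in Col-0. In both members all CKX1 arrays were above all Col-0 arrays, and CKX1 array 3 was the highest. Higher signals without overlap were found in 5 of 28 members, against a background of 9.41%, and lower ones in 2, against 14.9%.

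After 15 min of BA, CKX1 and Col-0 differed in 0 of 28 members at the threshold in limma, against 0.0188% of all probe sets tested, and 3 were higher in CKX1 at an unadjusted p under 0.05, against a background of 3.72%. They were UGT71C3 (log2 difference 1.07, SE 0.25, limma adjusted p = 0.206), UGT71C1 (1.12, SE 0.34, limma adjusted p = 0.33) and UGT72E2 (0.60, SE 0.28, limma adjusted p = 0.52). For UGT71C3 and UGT71C1 the 4 CKX1 arrays lay above both Col-0 arrays, 2 of 28 members at a background of 6.48%, and 2 others lay below without overlap, at a background of 9.19%. Within the arrays low in 25S, 3 of CKX1 and 1 of Col-0, the differences were 0.79, 0.44 and 0.08, and between the 2 arrays high in 25S they were 1.52, 1.94 and 1.19, in the same order of genes.

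**Figure D4:**
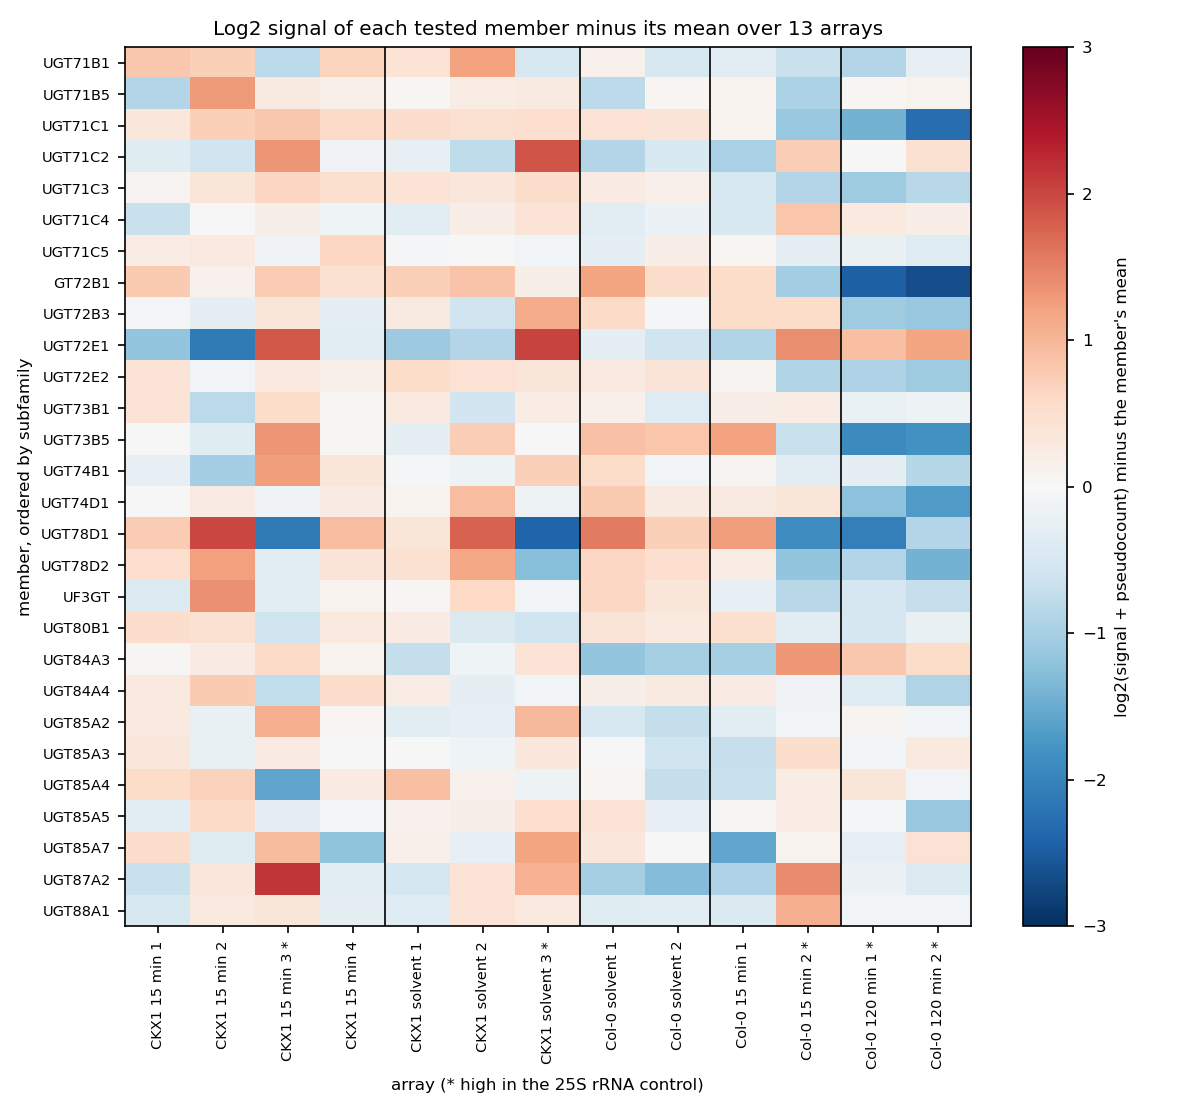
Log2(signal + pseudocount) of each of the 28 tested members minus its mean over the 13 arrays (colour, blue below and red above 0), by subfamily (rows) and array (columns, asterisks for the 5 arrays high in the 25S control). The last 2 columns, Col-0 at 120 min, are the bluest for GT72B1, UGT71C1, UGT73B5 and UGT74D1, while UGT72E1 and UGT78D1 change colour with the asterisks.

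Set against all 13 arrays, the tested members fell into patterns by array. In 6 of 28 (GT72B1, UGT71C1, UGT72B3, UGT72E2, UGT73B5 and UGT74D1) both 120 min arrays lay below the other 11, which is 21.4% against 5.54% of all probe sets tested, and in 0 did both lie above, against 5.68%. In 6 (GT72B1, UF3GT, UGT71C1, UGT71C3, UGT72E2 and UGT73B5) the 3 Col-0 arrays high in 25S lay below the other 10, again 21.4%, against 5.53%. UGT71C2, UGT72E1 and UGT84A3 were above in all 5 arrays high in 25S (10.7%, against 4.69%), and UGT78D1 and UGT78D2 were below (7.14%, against 6.71%).

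Markers of root tissue differed among themselves in these arrays. Of 9 root markers 5 had a probe set named in the annotation, none with a signal of 0. Their summed signal was 3231 to 4453 units in CKX1 after BA and 3981 to 4899 in CKX1 with solvent. In Col-0 it was 4071 to 4133 with solvent, 2596 to 3145 after 15 min and 3607 to 4101 after 120 min. The marker PYK10 made up most of the sum on every array, so the sum says little about the other markers. The root peroxidase gene AT3G01190 had 31.3 and 22.9 units after 120 min, against 550.4 and 442.1 with solvent, and 65.5 in Col-0 15 min array 2. EXPA7, an expansin of root hair cells, had 39.8 and 32.6 units after 120 min, against 135.9 and 163 with solvent, and EXPA18, another expansin, had 63.5 and 67.4, against 174 and 221.7. By contrast AT1G62500 had 121.7 and 115.6 units after 120 min, against 47.9 and 38.4 with solvent, and 197.1 in Col-0 15 min array 2, and PYK10, a root beta-glucosidase, had 3350.9 and 3862.6, against 3163.2 and 3267.4. The part of root tissue in the low signals of GT72B1, UGT71C1 and the others was not tested. Of 11 green tissue markers 2 had a probe set named in the annotation, with sums of 7505 to 10307 units after 120 min, against 5881 to 6642 with solvent. Most of each sum came from LHCB4.1. LHCB4.1, a light-harvesting protein gene, was higher, at 6267.2 and 8940.2 units against 4233.5 and 4977.9, and PORB, a chlorophyll synthesis gene, was lower, at 1237.8 and 1366.9 against 1647.3 and 1663.6.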

How the data were processed

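Each deposited value is a normalized signal intensity on a linear scale, per the labels. The sources used here do not name the scaling software or the genome build. Genes were named from the platform annotation, and all 41 members matched the RefSeq table (TAIR10.1). Of 3 probe sets that name such a gene beside another gene, none was used as a member. Groups came from sample titles. For Col-0 120 min array 1 the title, which gives BA, was followed over the source field, which gives control solution.

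Values under 1 were set to 1, and 3.39, which is 0.1 of the table median of 33.9, was added before log2. Probe sets under the 30th percentile of mean log2 signal (3.92) were left out. Linear models (limma 3.58.1, R 4.3.3) were fitted to 15922 probe sets, 13 arrays and 5 groups, with an intensity trend and 8 residual degrees of freedom. Benjamini-Hochberg adjustment covered all probe sets of each of the 7 comparisons, with a threshold of 0.05. The fit was tested on simulated data.

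Named members were those past the threshold, the 3 highest and 3 lowest log2 changes per comparison and those with a known acceptor. Others were named after their values were seen. Members and lists were chosen with earlier results of these data known. Replicate numbers paired the CKX1 arrays, whose same-numbered deviations from group means correlated at 0.63, 0.58 and 0.73, and did not pair the Col-0 arrays (0.11, −0.02 and 0.02).

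Alternatives were other scalings, pseudocounts, filters and variance models, fits of the compared groups alone, replicate blocks, array weights, the 25S signal as a covariate and leaving out each array. Leaving out arrays by their 25S signal was chosen after seeing the data.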

Additional observations from a re-analysis of the deposited data

Results flagged for a closer look

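UGT71B1 had 23.0 units in CKX1 15 min array 3, far from 77.2, 72.7 and 69.7 units in arrays 1, 2 and 4 of that group. Its CKX1 solvent array 3 was also the lowest of its group, at 30 units against 57.8 and 103.7 units, and both arrays are high in the 25S control. The gap was looked for in 28 groups of 4 arrays, 1 for each tested member, and chance alone gives such a gap in about 1 group of 20. Only this 1 was flagged, no more than that rate gives. The part of the 25S state in this value was not tested.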

How the results depend on the processing

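In Col-0 at 120 min over solvent, 1 member and 6 probe sets passed the threshold. The number of members was 0 with a pseudocount of 0.5 of the median or with no filter, 3 with the 25S signal as a covariate, 13 with array weights, 15 in a fit of the compared groups alone, 6 with a fixed replicate block (6.45% of all probe sets) and 7 with a random replicate block (5.22%). It was 3 without both CKX1 arrays numbered 3 (1.43% of all probe sets), 9 without these and Col-0 15 min array 2, and 0 to 2 without single arrays. Over 15 min, where 0 passed, it was 2 with either replicate block (0.327% fixed and 0.32% random), 1 with array weights, 1 with the 25S covariate and 5 without the 3 arrays. Counts over all probe sets rose too, to 3672 in the fit of the compared groups alone and 3472 with array weights. In the other 5 comparisons 0 members passed under any alternative. GT72B1 at 120 min lost its limma call under 11 of 28 alternatives, among them the pseudocount of 0.5 of the median (adjusted p = 0.0536) and no filter (adjusted p = 0.0502), and kept its direction in all 28. Median-centring moved the median of all probe sets at 120 min to 0.09, against −0.11 as deposited, and the median of the tested members to −0.33. With the 25S covariate the 120 min change was 0.39 for UGT78D1, 0.015 for UGT71C5, −0.79 for UGT71C2 and −1.09 for UGT72E1, and the change over 15 min was −0.068 for UGT84A3, −1.54 for UGT72E1 and −0.22 for UGT85A7. In CKX1 after BA, UGT72E1 was 0.024 with array weights and UGT85A7 0.0032 with the fixed replicate block. Without the 3 arrays, or in the 8 arrays low in 25S alone, the Col-0 15 min change was 0.11 for UGT78D1 and −0.46 for UGT72E1, UGT88A1 was 0.27 between genotypes after BA, and the genotype difference in response was 0.23 for UGT72E1, 0.45 for UGT84A3 and −0.010 for GT72B1. Without single arrays, directions turned in the Col-0 15 min change of UGT78D1 (−3.04 to 0.11) and UGT72E1 (−0.46 to 1.84), in the change over 15 min of UGT84A3 (−0.62 to 1.68), UGT72E1 (−0.36 to 1.94) and UGT85A7 (−0.022 to 1.65), in CKX1 after BA for UGT72E1 (−1.23 to 0.54), UGT85A7 (−0.71 to 0.019), UGT72B3 (−0.76 to 0.10) and UGT78D1 (−0.67 to 1.41), between genotypes after BA for UGT72E1 (−1.84 to 0.45) and UGT88A1 (−1.12 to 0.40), and in the genotype difference in response of UGT84A3 (−2.01 to 0.28). The turns in direction listed here, by single arrays or by other alternatives, are those of the members named for each comparison. Members not named for a comparison turned too when single arrays were left out, among them UGT73B5 and UGT88A1 in the Col-0 15 min change. So did UGT84A3, UGT87A2 and, barely, GT72B1 between genotypes after BA. The cause of these turns was not tested. The alternatives without the 3 arrays were chosen after seeing the data, and a group left with 1 array was assumed to vary like the others. The replicate block changed no call in CKX1, whose same-numbered arrays correlated.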

Other observations

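A probe set annotated to both UGT73B2 and UGT73B3, relatives of UGT73B1 and UGT73B5, was not a member because its signal cannot be given to 1 gene. It had 90.9 and 79.1 units in Col-0 after 120 min of BA, against 132.5 and 214.4 with solvent, and 144 and 94.2 after 15 min. In CKX1 it had 112.2 to 299.7 units with and without BA. The 3 Col-0 arrays high in 25S were its lowest. The other such probe sets did not show this order. That of UGT89B1 and AT1G73885 had 233.7, 197.6 and 157.5 units in these 3 arrays and its lowest value, 65.2, in CKX1 15 min array 3. That of UGT71D1 and AT2G29710 had its lowest value, 12.9, in a CKX1 array.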
